A study of Mus musculus with 10 samples.

Results

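The genes described here encode the proteins of the cytosolic ribosome, measured by bulk RNA sequencing of mouse retina. They were chosen by symbol alone: every gene named Rpl or Rps followed by a number, with an optional final a, l or x, together with Rplp0, Rplp1, Rplp2 and Rpsa. Of 19999 genes in the count table, 80 carried such a symbol, 3 of these (Rps4l, Rpl6l and Rpl32l) are annotated as pseudogenes and were left out, and 77 remained, 46 of the large subunit and 31 of the small subunit. All 77 passed the filter on low counts. Proteins of the cytosolic ribosome under other symbols, such as Rps3a1 and Fau, fall outside this choice and are given separately below.

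The retinas came from BALB/c mice, an albino strain. The light damage group held 5 libraries named LD-vehicle and the control group held 5 named CTRL-vehicle, so every library carries the word vehicle. The light dose, the time after light, and the age and sex of the mice were not given in the sources used here. No label says that the 5 libraries of a group came from separate animals. Each p-value therefore reflects only how far these libraries spread, which may be in part technical. Xist counts, given below, set light damage libraries 1 and 2 apart, so the light damage libraries are not all repeats of the same sample. Light-induced damage is a model of photoreceptor loss, and the study's title places it in work on the ATP-gated channel P2RX7 and cGAS-STING signalling. The compound A74, named in the study's design, was not analysed here.

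A ribosome joins a small subunit, which reads the messenger RNA, to a large subunit, which forms the peptide bonds. Most of its proteins are present once in each ribosome, and their genes are known to be expressed in step with each other. Their messenger RNAs typically begin with a run of pyrimidines, through which mTOR signalling controls their translation. Photoreceptors renew their outer segments daily and so make protein at a high rate.

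The sequences around the start site bear on this feature and are printed for 8 members. RefSeq's promoter table on GRCm38.p6 held 57 of the 77 members. Each line gives 40 bases before the annotated start and the first 10 transcribed bases, 5′ to 3′ on the gene's own strand. Capitals mark a run of at least 8 C or T letters that overlaps the window from 15 bases before to 15 after the start, or the motif CCGGAAG on either strand. The first 5 genes were called higher in light damage and the last 3 were not, and they were picked to show a run in members of both sets, with Rpl27 as a called member without one. The run of Rpl31 ends before the annotated start.
Rpl18 (chr7:45718031-45718080, + strand): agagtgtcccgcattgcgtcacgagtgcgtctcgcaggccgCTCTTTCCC
Rpl27a (chr7:109519155-109519204, + strand): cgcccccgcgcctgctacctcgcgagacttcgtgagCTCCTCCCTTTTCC
Rplp2 (chr7:141447611-141447660, + strand): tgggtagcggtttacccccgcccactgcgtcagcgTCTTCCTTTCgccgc
Rpl31 (chr1:39367811-39367860, + strand): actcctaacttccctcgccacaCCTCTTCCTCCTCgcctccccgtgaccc
Rpl27 (chr11:101442205-101442254, + strand): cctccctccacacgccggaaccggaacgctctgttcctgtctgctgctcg
Rpl15 (chr14:18270977-18271026, - strand): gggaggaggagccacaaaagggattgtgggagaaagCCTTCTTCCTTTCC
Rps6 (chr4:86857358-86857407, - strand): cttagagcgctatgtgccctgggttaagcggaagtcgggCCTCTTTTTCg
Rpl38 (chr11:114668540-114668589, + strand): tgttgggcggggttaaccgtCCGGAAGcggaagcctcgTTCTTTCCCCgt

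For the counts, a pyrimidine run needed at least 8 C or T letters in a row inside the window from 15 bases before to 15 after the start. A run that only partly reaches this window is printed in capitals but may not be counted. Such a run was counted if enough of it lay inside. A pyrimidine run was found in 24 of the 57 members, 42.1%, against 11.8% of the 11848 tested genes with a promoter entry. The motif CCGGAAG, a core that ETS factors are known to bind, was searched on both strands of the 300 bases around the start. It was in 40.4% of members against 16.6% of tested genes. The letters CTTTCC were in 47.4% of members against 26.3%, on either strand, and they can overlap a pyrimidine run. TATAAA was in 8.77% against 7.17%. The first transcribed base was C in 33.3% of members against 15.1%. Among the 12 members with an entry that were called higher in light damage, 4 had the run and 3 had CCGGAAG; among the 45 not called, 20 had each. The 5 searches were chosen after values of these data had been seen, no test was made, and a match describes letters, not a site in use.

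The libraries held between 14652535 and 20699236 counts. Markers of rods were abundant in every library, as labelled. The 9 lens markers (7 crystallins, Mip and Bfsp1) summed to 7520 and 4015 CPM (counts scaled by library size) in light damage libraries 1 and 2, and to between 3.28 and 118 CPM in the other 8. Xist was counted 17174 and 20414 times in those same libraries and between 1 and 9 times in the others. No control had such Xist counts, so this difference was not balanced between the groups. The share of counts, the number of genes called and the values of the called genes are therefore also given without light damage libraries 1 and 2. Genes of the mitochondrial genome took 4.93%, 3.39%, 3.26%, 4.10% and 3.21% of counts in controls 1 to 5, and 3.58% to 4.08% in light damage.

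Ribosomal protein genes took a slightly larger share of the counts after light damage. The share was 1.29%, 1.35%, 1.35%, 1.38% and 1.18% in light damage libraries 1 to 5, and 1.23%, 0.993%, 1.10%, 1.25% and 1.08% in controls 1 to 5. The means were 1.31% ± 0.0787 (SD, n = 5) and 1.13% ± 0.107 (SD, n = 5), a difference of 0.180 percentage points, or 0.174 without light damage libraries 1 and 2. The groups overlapped: controls 1 and 4 lay inside the light damage range, and light damage library 5 lay below both. In a bulk sample, fewer cells of a type and less RNA per cell cannot be told apart.

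**Figure D1:**
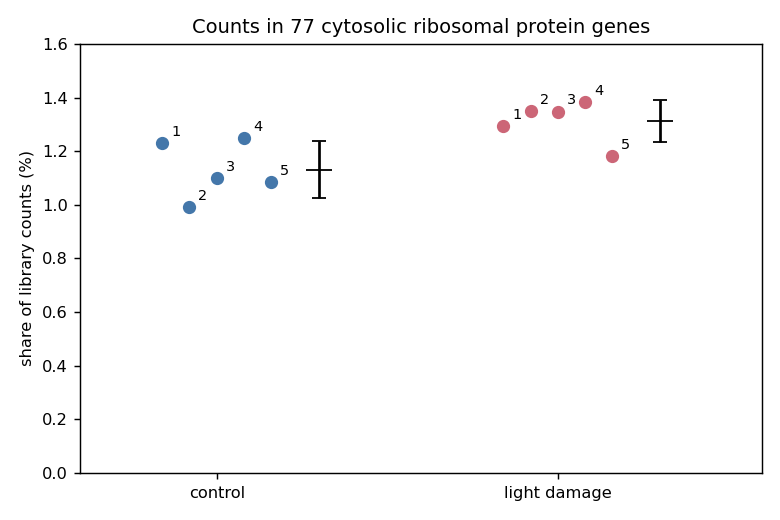
Share of each library's counts in the 77 genes, as a percentage, with 1 numbered point per library and the mean ± SD beside each group (n = 5). Controls 2, 3 and 5 lie below every light damage library, while controls 1 and 4, at 1.23% and 1.25%, lie within their range.

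The change was small and mostly in 1 direction. The log2 fold change of light damage over control was above 0 for 75 of 77 genes, against 50.3% of all 16852 genes tested. This lean was not particular to these genes. Among sets described below, it was above 0 for 66 of 77 mitochondrial ribosomal proteins and 26 of 31 initiation factors. The same held for 208 of 289 other protein-coding genes with a coding length under 300 bases. For ribosome assembly genes the count was 37 of 61, and for the mTOR list 19 of 33. The median over the 77 members was 0.20, a ratio of 1.15, against a median of 0.00 over all genes tested. At a Benjamini-Hochberg adjusted p under 0.05 over all genes (quasi-likelihood test of edgeR), 13 of 77 genes rose, or 16.9%, against a background of 5.32%. None of the 77 fell, against a background of 7.85%, and none was lower at an unadjusted p under 0.05 by edgeR, DESeq2 or limma-voom. A further 17 genes had an adjusted p between 0.05 and 0.1, a range whose share over all genes was not counted. At an unadjusted edgeR p under 0.05, 42 of the 77 were higher. Of the 16852 genes tested, 5110 passed that threshold in either direction. The groups did not overlap for 1 of 77 genes, Rpl27, against a background of 4.31% higher without overlap; 0 of 77 were lower without overlap, against 5.48%.

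How many genes passed depended on which library was left out, in both groups. Each such fit also held fewer libraries, and the part of this in the counts was not tested. The count rose to 29 without light damage library 5, 28 without control 1 and 31 without control 4, where 5.78%, 7.91% and 4.79% of all genes tested were called higher. It fell to 5, 4, 5 and 7 without light damage libraries 1, 2, 3 and 4, where 2.58%, 2.83%, 2.34% and 3.84% of all genes were called higher. It fell to 6, 5 and 6 without controls 2, 3 and 5, where the share of all genes was 3.77%, 3.74% and 3.46%. Without light damage libraries 1 and 2 together none of the 77 passed by edgeR, against 0.782% of all genes called higher. There 23 of the 77 were higher at an unadjusted edgeR p under 0.05, for which no share over all genes was counted. The median log2 fold change over the members was 0.18. In that fit the 13 genes had log2 fold changes of 0.22 (Rps4x) to 0.32 (Rpl36) and edgeR adjusted p-values of 0.0546 (Rpl27) to 0.238 (Rpl36a). On all 10 libraries DESeq2 called 29 members and 7.77% of all genes higher, and limma-voom 10 members and 4.77%. Of the 13 genes, Rpl27, Rpl18, Rpl27a and Rpl10 passed in every fit that left out 1 library.

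**Figure D2:**
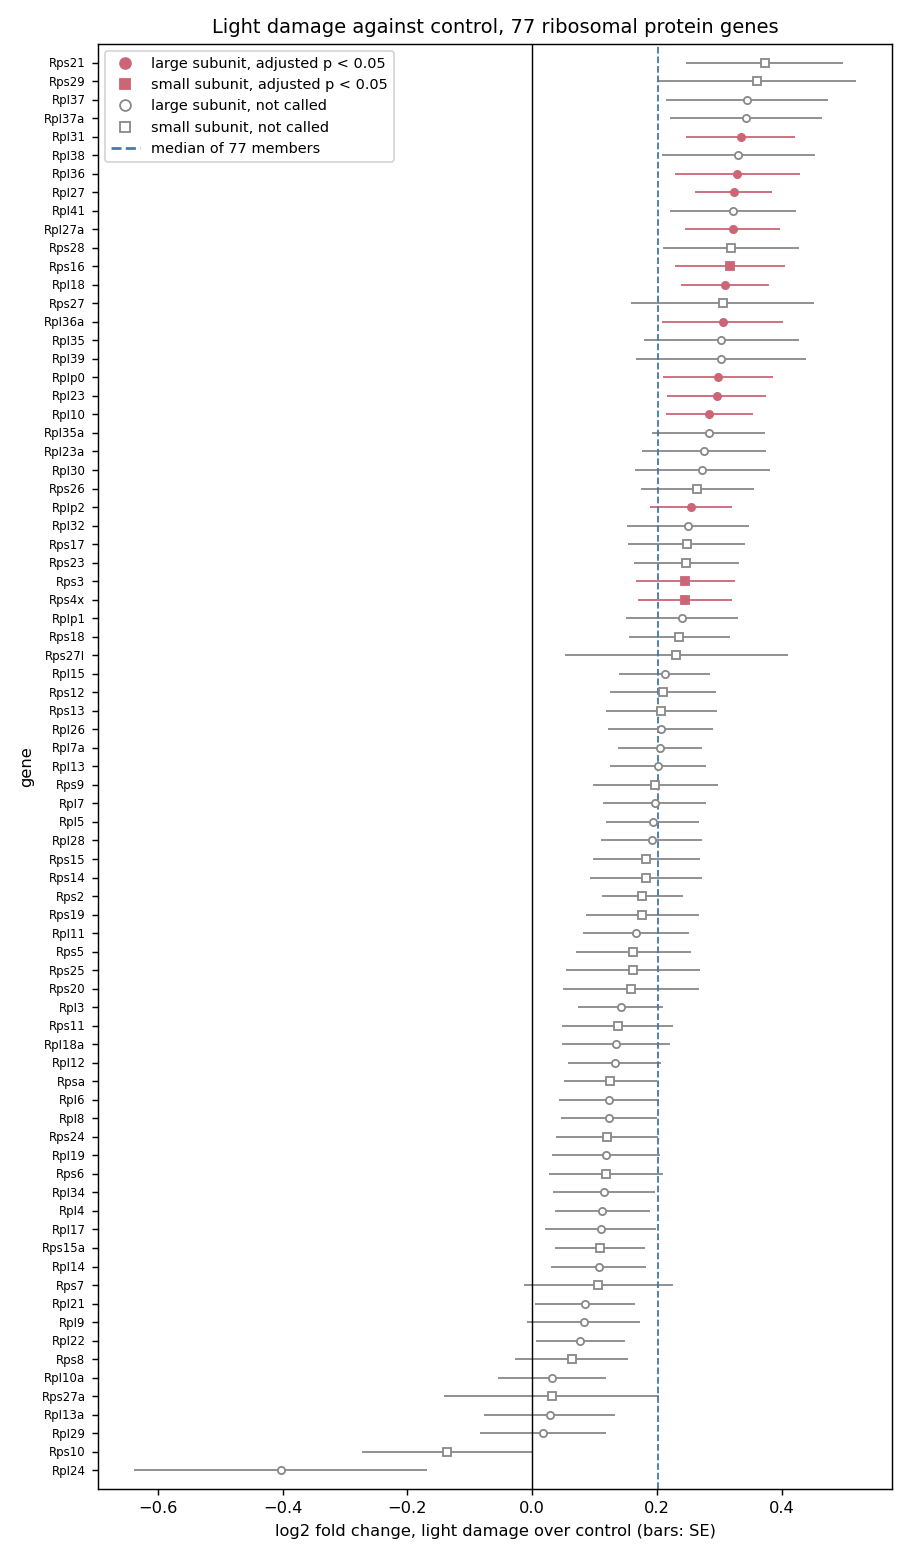
Log2 fold change of light damage over control for each of the 77 genes, with bars of 1 SE, filled where the adjusted p was under 0.05 (circles, large subunit; squares, small subunit). Rps21 is highest at 0.37, Rpl24 lowest at -0.40, and the dashed line is the median of 0.20.

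Among large subunit genes, 10 of 46 rose, with a median log2 fold change of 0.21. Rpl27, a surface protein of the large subunit, stood at 133, 135, 133, 143 and 118 CPM in light damage libraries 1 to 5. In controls 1 to 5 it stood at 109, 94.5, 109, 109 and 109 CPM. Every light damage library was above every control. Its log2 fold change was 0.32 (SE 0.06), with an edgeR adjusted p of 0.00495.

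Rpl18 had 128, 121, 124, 121 and 109 CPM in light damage and 106, 84.8, 93.2, 111 and 93.5 CPM in controls. The groups touched only where light damage library 5 fell just under control 4. The log2 fold change was 0.31 (SE 0.07, edgeR adjusted p = 0.0113). Rpl27a had 196, 202, 202, 200 and 170 CPM against 171, 133, 144, 173 and 155 CPM. Here too light damage library 5 was the low one, below controls 1 and 4. Rpl27a rose by 0.32 on the log2 scale (SE 0.08, edgeR adjusted p = 0.0127).

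Rpl10, which sits near the peptide-joining centre and is added late in assembly, had 148, 149, 154, 156 and 134 CPM in light damage. Its controls were at 128, 107, 126, 137 and 111 CPM. Only light damage library 5 and control 4 crossed. It rose by 0.28 (SE 0.07, edgeR adjusted p = 0.0154). Rpl31, near the exit of the peptide tunnel, rose by 0.33 (SE 0.09, edgeR adjusted p = 0.0233), and Rpl23 rose by 0.30 (SE 0.08, edgeR adjusted p = 0.0247). Rpl36 also rose, by 0.33 (edgeR adjusted p = 0.0458); it lies outside the rule for named genes and is added so that all 13 are listed. Of the 10 fits with 1 library omitted, Rpl31 passed in 5, Rpl23 in 3 and Rpl36 in 2.

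The stalk of the large subunit, which recruits the elongation factors, is built from Rplp0 with Rplp1 and Rplp2. Rplp0 had 332, 338, 346, 290 and 278 CPM in light damage against 261, 218, 254, 311 and 246 CPM in controls. Control 4 lay above light damage libraries 4 and 5, and the other controls lay below all 5. Rplp0 rose by 0.30 (SE 0.09, edgeR adjusted p = 0.0361). It passed in 4 of the 10 fits that left out 1 library. Rplp2 had 101, 113, 104, 108 and 94.9 CPM against 88.7, 78.1, 82.1, 98.0 and 89.0 CPM. It rose by 0.25 (SE 0.07, edgeR adjusted p = 0.0200) and lost its call only without light damage library 2, at 0.0623. Rplp1 had a log2 fold change of 0.24 (SE 0.09) and an edgeR adjusted p of 0.0857, so it did not pass.

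Rpl5 and Rpl11 bind the 5S ribosomal RNA and, outside the ribosome, are known to bind the p53 regulator Mdm2. Rpl5 had 257, 258, 252, 269 and 227 CPM in light damage and 241, 201, 197, 253 and 212 CPM in controls. The log2 fold change was 0.19 (SE 0.07, edgeR adjusted p = 0.0941). For Rpl11 it was 0.17 (SE 0.09, edgeR adjusted p = 0.202). Neither passed. Rpl3, a core protein of the large subunit, had a log2 fold change of 0.14 (SE 0.07). Rpl22, also known for roles outside the ribosome, had 0.08 (SE 0.07). Rpl13a was at 0.03 (SE 0.11). None of these 3 passed.

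Among small subunit genes, 3 of 31 rose, with a median log2 fold change of 0.18. Whether the subunits differed was not tested. Rps16 had 135, 146, 141, 164 and 115 CPM in light damage and 119, 96.7, 106, 127 and 114 CPM in controls. Light damage library 5 lay below controls 1 and 4. Rps16 rose by 0.32 (SE 0.09, edgeR adjusted p = 0.0302). Rps3, which lines the entry of the messenger RNA, rose by 0.25 (SE 0.08, edgeR adjusted p = 0.0486), from 272, 223, 211, 272 and 222 CPM in controls to 282, 287, 273, 315 and 264 CPM. Rps16 and Rps3 each passed in 3 of the 10 fits that left out 1 library.

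Rps6, the small subunit protein phosphorylated downstream of mTOR, had 312, 313, 303, 331 and 271 CPM in light damage and 338, 249, 245, 319 and 259 CPM in controls. Control 1 was the highest of all 10 libraries. Its log2 fold change was 0.12 (SE 0.09, edgeR adjusted p = 0.399). Rpsa, which doubles as a laminin-binding protein, had 0.13 (SE 0.07), Rps14 had 0.18 (SE 0.09) and Rps19, mutated in Diamond-Blackfan anaemia, had 0.18 (SE 0.09). None of these 4 passed.

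Rps27 and its close relative Rps27l had log2 fold changes of 0.31 (SE 0.15) and 0.23 (SE 0.18), and neither passed. Rps27l, described as a p53 target, was rare, at 6.23 to 9.06 CPM in light damage and 4.45 to 9.60 CPM in controls. Rps27a, made as a fusion with ubiquitin, had 89.1, 132, 151, 161 and 107 CPM in light damage and 138, 121, 137, 134 and 96.1 CPM in controls. Light damage library 1 was the lowest of all 10. The log2 fold change was 0.03 (SE 0.17, edgeR adjusted p = 0.923).

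Of the 4 members on the X chromosome, Rpl10, Rps4x and Rpl36a rose. Rps4x had 261, 276, 269, 272 and 226 CPM in light damage against 244, 198, 203, 245 and 209 CPM in controls. It rose by 0.24 (SE 0.08, edgeR adjusted p = 0.0417). Rpl36a rose by 0.31 (SE 0.10, edgeR adjusted p = 0.0487). Rpl39 had 0.30 (SE 0.14) and did not pass. The 4 summed to 491, 515, 501, 510 and 423 CPM in light damage libraries 1 to 5. In controls they summed to 354 to 455 CPM. Without light damage libraries 1 and 2, which had the high Xist counts, Rpl10 was at 0.28 and Rps4x at 0.22. In that fit Rpl36a was at 0.25 and Rpl39 at 0.17. The part of these 2 libraries was not tested. Of 554 tested genes on the X chromosome, 34 rose and 35 fell.

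Deviations of the members were shared between genes within a library. The median member stood 0.20 above its own mean over 10 libraries in light damage library 4 on the log2 scale, and -0.30 in control 2. Light damage library 5 was the lowest of its group for 67 of 77 genes. Control 2 was the lowest of all 10 for 53. Controls 1 and 4 were the highest controls for 61 of 77 genes, against 18.4% of all genes tested. For 55 genes every light damage library lay above controls 2, 3 and 5, which were picked after the members' values were seen. Shares over all genes were not counted for the 67, 53 and 55 genes. These patterns were noticed in the values and are given as a description.

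**Figure D3:**
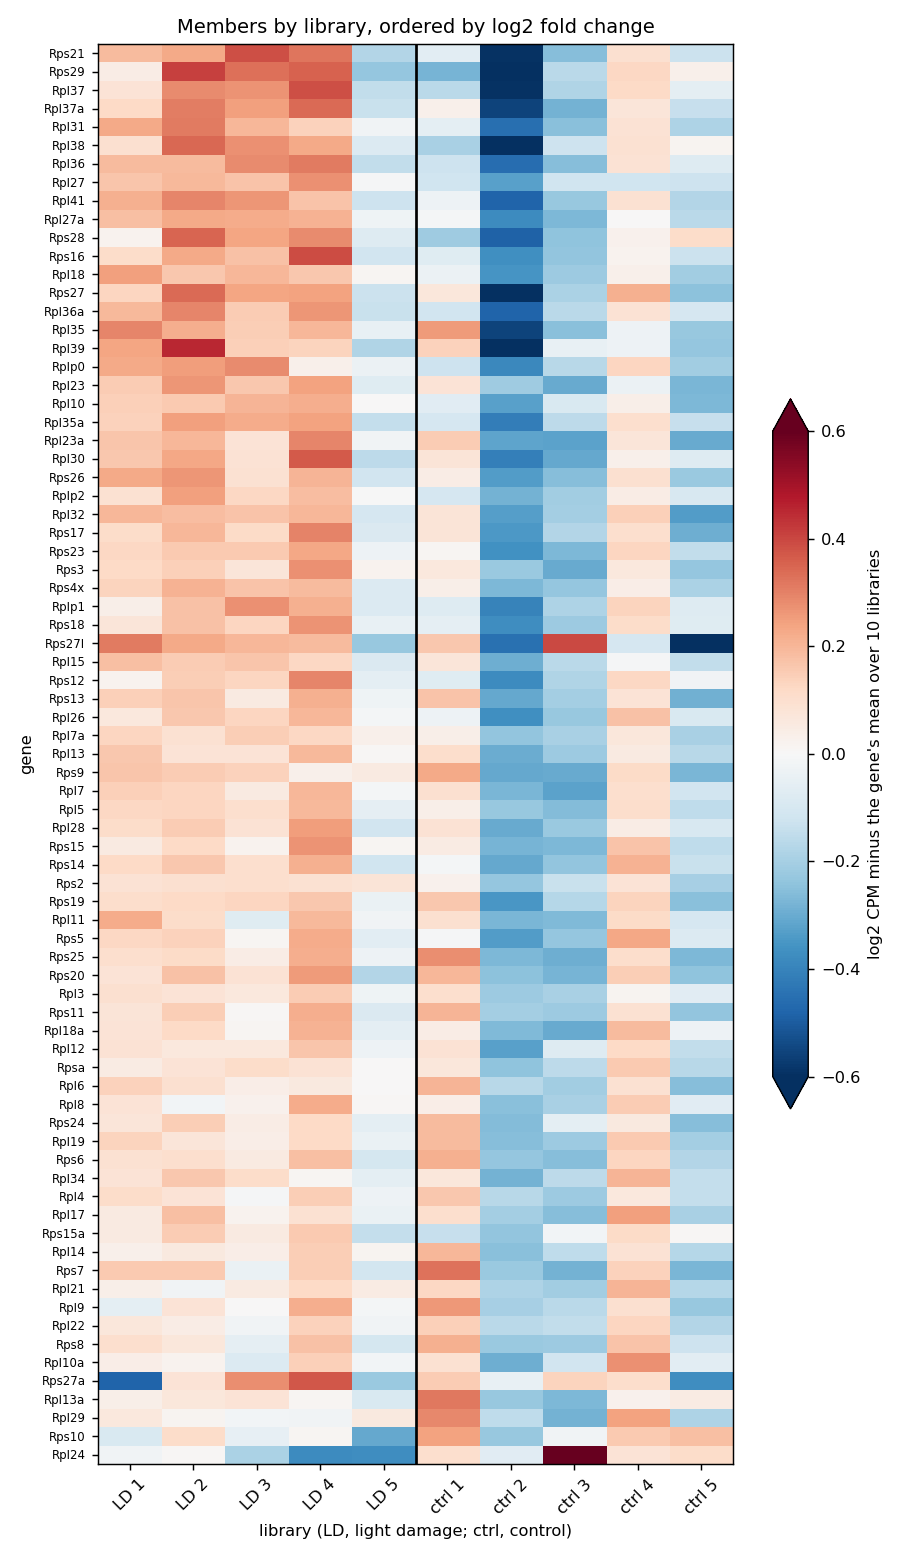
Log2 CPM of each of the 77 genes minus its own mean over the 10 libraries, ordered by log2 fold change, with light damage libraries left of the line and controls right. Controls 2, 3 and 5 are low for most genes, and the median deviations of controls 1 and 4, 0.07 and 0.10, lie between those of light damage libraries 4 and 5, 0.20 and -0.06.

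Among the controls, some other measures were highest in the same libraries. Controls 1 and 4 had the highest mitochondrial share of the controls, 4.93% and 4.10%, and the highest summed rod markers, 110327 and 126011 CPM against 77805 to 98387 CPM in the other 3. The 17 rod markers ranged from 72965 to 101434 CPM in light damage. Of the 17, 1 rose and 0 fell, with a median log2 fold change of -0.12. Within light damage, library 5 had the lowest mitochondrial share, 3.58%, but a rod sum of 92956 CPM. The lowest rod sum there, 72965 CPM, was that of library 3. The 13 Müller glia markers summed to 5782 to 8090 CPM in light damage and 4390 to 5858 CPM in controls, and 6 of the 13 rose. The 10 microglia markers summed to 77.9 to 170 CPM and 59.5 to 81.6 CPM, and 1 rose. Of the 10 bipolar cell markers 5 rose, with sums of 1379 to 1608 CPM and 1162 to 1470 CPM. Of the 8 amacrine cell markers 2 rose, with 1484 to 1622 CPM and 1248 to 1451 CPM. None of 9 ganglion cell, 7 endothelium, 7 retinal pigment epithelium, 4 erythrocyte and 3 fibroblast markers rose or fell. Of all genes tested, 5.32% rose and 7.85% fell. The part of these measures in the ribosomal protein result was not tested.

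The median fold change was highest in the shortest genes, among members and among other genes. The 10 members with a coding length under 300 bases had a median log2 fold change of 0.33, against 0.13 for 289 other protein-coding genes of that length, of which 12.1% rose. None of the 10 passed by edgeR or limma-voom. By edgeR 8 were higher at an unadjusted p under 0.05, while 84 of the 289 other genes passed it in either direction. DESeq2 called 7 of the 10, against 7.77% of all genes called higher. The 10 include the 4 highest members, named after their values were seen: Rps21 at 0.37 (SE 0.13), Rps29 at 0.36 (SE 0.16), Rpl37 at 0.34 (SE 0.13) and Rpl37a at 0.34 (SE 0.12). Rpl41, among the shortest known proteins, had 0.32 (SE 0.10, edgeR adjusted p = 0.0508). The 27 members of 300 to under 450 bases had a median of 0.25, with 8 called, against 0.10 for other genes, of which 8.99% rose. From 450 to under 600 bases the median was 0.13 over 19 members, with 1 called, against 0.08 for other genes, of which 9.42% rose. From 600 bases it was 0.16 over 21 members, with 4 called, against 0.04 for other genes, of which 7.44% rose. A fit corrected for transcript length, rather than coding length, and for GC content called 31 members and 6.89% of all genes higher. The median log2 fold change over members was 0.17 in that fit, against 0.20 in the main fit. The part of length in the result was not tested.

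**Figure D4:**
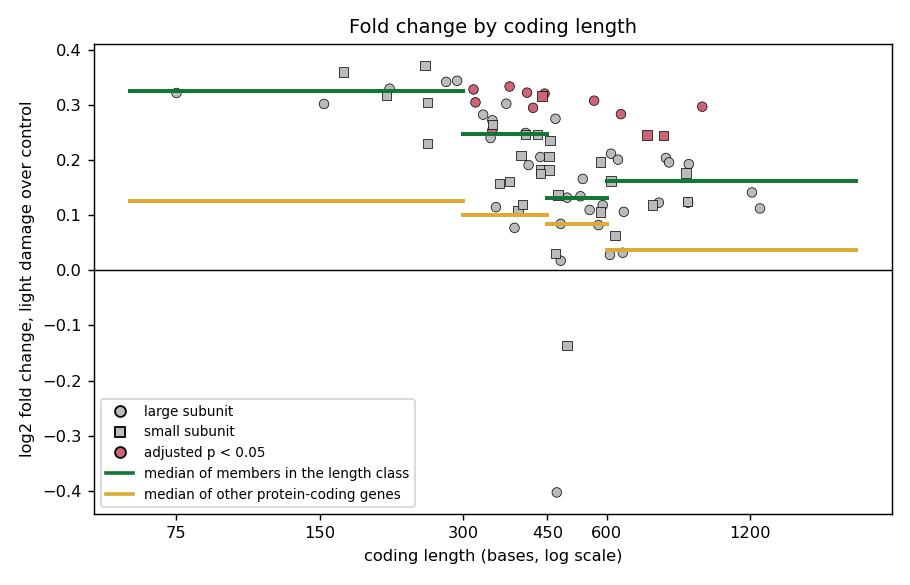
Log2 fold change against coding length in bases (log scale) for the 77 genes, red where the adjusted p was under 0.05. Green lines are the median of the members in each length class and yellow lines that of other protein-coding genes; the members' median is above that of other genes in each class, and both medians are highest under 300 bases.

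Levels are compared between genes per kilobase of transcript. The median member had 183 CPM per kb and 67 of 77 lay between 50 and 500. Rps15 was highest at 608 CPM per kb, followed by Rplp1 at 471 and Rpl8 at 448. Rpl24 was lowest at 1.63, with Rps10 at 7.65 and Rpl13a at 14.2 above it. Rps15a and Rps20 were divided by annotated transcripts of 5130 and 3706 bases, which lowers their level per kb.

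**Figure D5:**
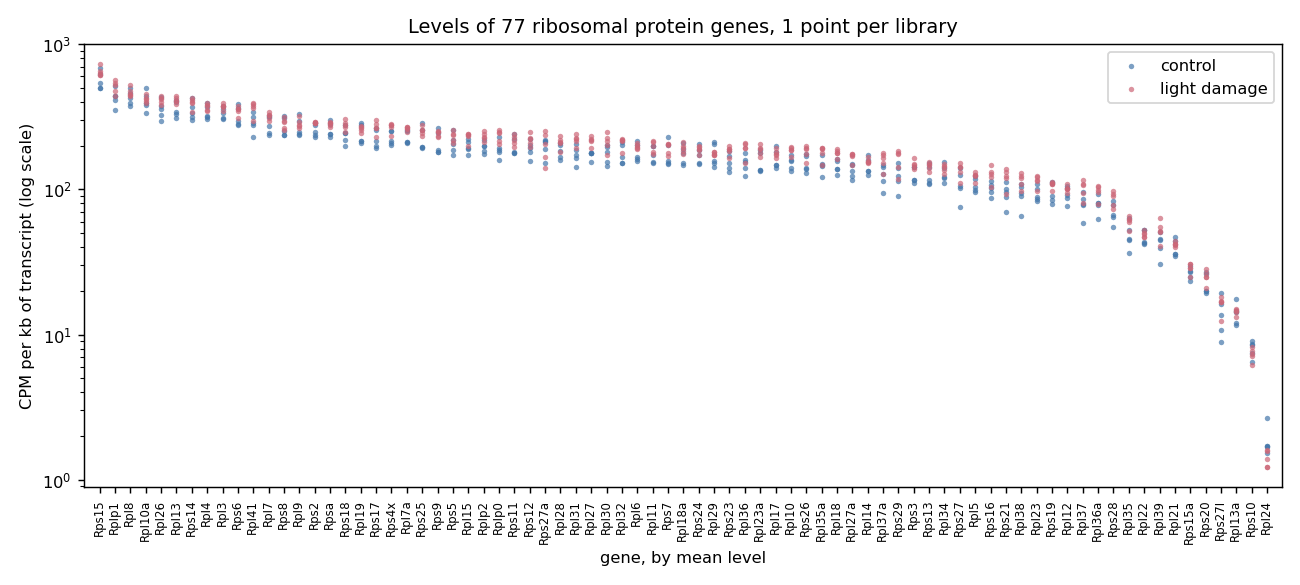
CPM per kb of transcript (log scale) for the 77 genes by mean level, with 1 point per library. Most genes lie between 50 and 500, and the points of both groups overlap for all but Rpl27.

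The 2 members with a negative log2 fold change were among the rarest. Rpl24 had 1.06, 1.09, 0.947, 0.831 and 0.835 CPM in light damage and 1.16, 1.03, 1.79, 1.14 and 1.16 CPM in controls, from 15 to 33 counts per library. Its log2 fold change was -0.40 (SE 0.23, edgeR adjusted p = 0.258). Rps10 had 4.69 CPM on average in light damage and 5.16 in controls, a log2 fold change of -0.14 (SE 0.14). The processed pseudogene Rps10-ps2, looked up after these values were seen, had 56.4 ± 5.32 (SD, n = 5) and 45.2 ± 5.66 CPM and rose by 0.32 (SE 0.09, edgeR adjusted p = 0.0243). How reads were divided between near-identical copies was not given in the sources used here, so the levels of members with such copies are uncertain.

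Ribosomal proteins under other symbols were listed separately. Fau, whose product is cut to release a small subunit protein, had a log2 fold change of 0.20 (SE 0.07). Rack1, a scaffold protein on the small subunit, had 0.13 (SE 0.08). Neither passed. Rps3a1 had 0.24 (SE 0.08) at an edgeR adjusted p of 0.0502, and did not pass either.

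The rest of the translation machinery was described by lists, whose counts stand beside the 5.32% of all genes that rose and the 7.85% that fell. Of 31 initiation factors, 4 rose (Eif3c, Eif6, Eif3i and Eif3k) and 0 fell, with a median of 0.11. Eif3c, a core subunit of the factor that prepares the small subunit, rose by 0.22 (SE 0.05, edgeR adjusted p = 0.0108), and Eif6, which keeps the subunits apart, by 0.20. Of 13 genes in the list of elongation and release factors, 3 rose, with a median of 0.14. Eef1a2, which delivers transfer RNA, rose by 0.29 (SE 0.06, edgeR adjusted p = 0.00771) and Eef1b2 by 0.32. Eef1e1, an elongation factor in name only, rose by 0.22. Of 61 ribosome assembly genes, Npm1, Rrp1 and Nop10 rose, or 4.92%, near the share of all genes, and 0 fell, with a median of 0.04. Of 20 RNA polymerase I genes, 1 rose, Polr2l, which is shared with other polymerases.

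Mitochondrial ribosomal proteins, which serve the separate mitochondrial ribosome, had a median of 0.10, and 5 of 77 rose, or 6.49%, also near the share of all genes, among them Mrps33 at 0.27 (SE 0.08, edgeR adjusted p = 0.0333). In the mTOR list 2 of 33 rose, or 6.06%, and 2 fell, with a median of 0.02. Eif4ebp1, a translation repressor, rose by 0.76 (SE 0.21, edgeR adjusted p = 0.0296) from a low level of 1.53 ± 0.407 to 2.60 ± 0.413 CPM (SD, n = 5), and Rraga rose by 0.20. Tsc1, an inhibitor of mTOR, fell by 0.27 (SE 0.06, edgeR adjusted p = 0.0102), and Rps6kb2, a kinase of Rps6, fell by 0.36 (SE 0.08, edgeR adjusted p = 0.0114). None of these counts was compared with that of the cytosolic ribosomal proteins by a test.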

How the data were processed

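The deposited table holds whole-number read counts per Ensembl gene for 10 libraries, which the authors left without normalization; per the submitters' processing notes the tools were Bowtie2, RSEM 1.3.1 and DESeq2 1.4.5 on GRCm39, and whether the counts are rounded RSEM estimates was not given in the sources used here. Symbols were matched for 19892 of 19999 genes from GENCODE M21 (GRCm38), so no coordinates other than those of the RefSeq promoter sequences are given. Of these genes, 16852 passed edgeR's filterByExpr. The main test was edgeR 4.0.16 (TMM, robust quasi-likelihood, Benjamini-Hochberg over all genes tested, threshold 0.05) in R 4.3.3, and the script was tested on simulated data. CPM values use TMM library sizes. Alternatives used limma 3.58.1, DESeq2 1.42.0, other size factors, other filters, a replicate block, a length and GC correction, and the omission of each library.

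The genes and lists were chosen with earlier results of these data known. Named genes were the 8 called members with the lowest p, any called member of at least 0.5 log2, a set chosen by role, the 3 highest and 3 lowest per kb, and up to 4 called genes per related list; 1 gene chosen by role is not reported here. Length classes, the transcript used per gene and the promoter searches were set after values were seen; the transcript is the one of median length among those with the principal coding sequence. All 10 libraries have the same batch label. No 2 libraries were identical.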

Additional observations from a re-analysis of the deposited data

Results flagged for a closer look

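In 5 of the 74 groups of 5 libraries examined (named members and the summed measures, each group separately), 1 library stood apart, with a gap to its nearest neighbour of more than 0.71 of the group's range. Chance alone gives about 1 in 20 such groups. Rpl27 in control 2 stood low at 94.5 CPM. In light damage library 5, Rpl27a stood low at 170 CPM (169.9), Rps27l at 6.23 CPM and Rps4x at 226 CPM. Rpl24 in control 3 stood high at 1.79 CPM. Light damage library 5 and control 2 are also the libraries in which most members were lowest within their group, 67 and 55 of 77.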

How the results depend on the processing

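The median log2 fold change stayed above 0 in every alternative run, and no member was called lower in any, but the number called higher varied widely. Against 13 (10 large, 3 small), DESeq2 called 29 (19 and 10), library totals alone 29 (20 and 9), the length and GC correction 31 (21 and 10), and omission of light damage libraries 1 and 2 together 0 (0 and 0); limma-voom and the fit without robust dispersion called 1 small subunit member each. Leaving out 1 library gave 4 to 31 members, 4 to 19 of the large and 0 to 13 of the small subunit. A fit with replicate number as a block called 32 (21 and 11), and with the length and GC correction 36 (22 and 14), where 8.49% and 9.41% of all genes were called higher. The deviations of same-numbered libraries correlated at 0.0714, 0.0621, 0.316, 0.0522 and 0.0602. Only light damage libraries 3 and 4 correlated best with their own number. These values do not decide whether same-numbered libraries were paired. The sign turned for uncalled genes only. With the length and GC correction Rpl13a was at -0.0167 and Rpl29 at -0.00351, and when the block was added Rps27a was at -0.0147 and Rpl13a at -0.00827. Over the fits that left out 1 library, Rps27a ranged from -0.0651 to 0.137, Rpl13a from -0.0319 to 0.13, Rpl10a from -0.0308 to 0.119 and Rpl29 from -0.0454 to 0.106. The cause was not tested. Fold changes this small lie near the spread between 5 libraries. Rpl24 rests on 15 to 33 counts per library, so its fold change is imprecise (SE 0.23).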

Other observations

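Pseudogene symbols derived from these genes were also counted. Of 42 that passed the filter on low counts, 4 rose, or 9.52%, and 1 fell, against 5.32% and 7.85% of all genes tested. The median log2 fold change over the 42 was 0.08. Rps12-ps3 rose by 0.36, Rps16-ps2 by 0.38, Rps10-ps2 by 0.32 and Rpl17-ps3 by 0.43. Rpl36-ps9 fell by 0.96, with 4.01 to 8.05 CPM in controls and 1.85 to 4.73 CPM in light damage. The list was made after values were seen, and these copies share sequence with their parent genes, so their counts are uncertain.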
